A study of Mus musculus with 9 samples.

Results

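Genes that carry cells through meiotic and mitotic division were followed in RNA-seq libraries of mouse male germ cells that lacked one or the other subunit of a mitochondrial protease. The 33 genes were taken by symbol and cover cyclins, cyclin-dependent kinases (CDKs) and their partners, Cdc25 phosphatases, Polo, Aurora and NIMA kinases, spindle checkpoint and anaphase genes, motors and 2 markers of proliferation. All 33 were found among the 54532 genes of the deposited table, and all 33 reached a mean level of at least 1 FPKM (read counts scaled to gene length and sequencing depth, so that levels can be compared between genes). They were therefore part of the 17266 genes tested.

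The 9 libraries formed 3 groups of 3. Controls were wild type, and the other groups were conditional knockouts (cKO) of ClpP, a protease of the mitochondrial matrix, or of ClpX, the ATPase that unfolds its substrates. Deletion was driven by Stra8-Cre, which acts in germ cells shortly before meiosis, so that somatic cells of the testis should keep both genes. All libraries were labelled PD 35, with male germ cells as the cell type and spermatocytes in the title. Whether the controls carried Cre, how the cells were isolated and whether the replicates came from separate animals is not given in the sources used here, so the p-values reflect no more than how far these libraries vary, which may be technical.

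Library depth lay between 14334436 and 17021685 gene reads. In ClpP cKO the Clpp level was 3.69 to 6.15 FPKM against 8.46 to 9.36 in the controls, and in ClpX cKO the Clpx level was 11.3 to 15.6 FPKM against 54.7 to 59.3. The other partner changed too: Clpx was lower in ClpP cKO (36.0 to 40.3 FPKM), and Clpp was higher in ClpX cKO (12.5 to 14.1 FPKM). Control 3 and ClpX cKO 1 lay nearest to the other groups on the first principal component, at -39.2 and 19.1, where the other controls were at -55.8 and -52.4 and the other ClpX cKO libraries at 54.7 and 55.5. The labels give no batch. Spermatocyte genes such as Sycp3 (65.8 FPKM on average in the controls) were present, and so were the spermatid gene Tnp2 (4138 FPKM) and the Sertoli cell gene Clu (257 FPKM), so the libraries were not of spermatocytes alone.

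A cell enters division when CDK1 bound to a cyclin of the A or B type is activated by a Cdc25 phosphatase. Polo and Aurora kinases then build the spindle, the checkpoint holds sister or homologous chromosomes until all are attached, and CDC20 with the anaphase-promoting complex releases separase. Male germ cells use this machinery in mitotic spermatogonia and again in the meiotic divisions, where forms such as cyclin A1 and Aurora C take part that are rare or absent in most somatic cells. Spermatocytes accumulate many of these transcripts during the long prophase, well before they divide.

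More of these genes fell than rose in both knockouts. In ClpP cKO 14 of the 33 genes fell (42.4%), where 24.0% of all tested genes fell, and 4 rose (12.1%), where 20.7% of all tested genes rose. The other 15 did not pass. In ClpX cKO 17 fell (51.5%, against 33.5% of all tested genes), 6 rose (18.2%, against 32.1%) and 10 did not pass. The median log2 change of the 33 genes was -0.16 in ClpP cKO and -0.23 in ClpX cKO, beside 0.01 and 0.00 over all tested genes. All 33 code for proteins. When protein-coding genes alone were tested, 25.2% of them fell and 29.5% rose in ClpP cKO, and 31.3% fell and 41.5% rose in ClpX cKO, while 15 and 17 of the division genes fell and 4 and 6 rose. Both comparisons use the same 3 controls. In such bulk libraries fewer cells of a type and less RNA per cell cannot be told apart.

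**Figure D1:**
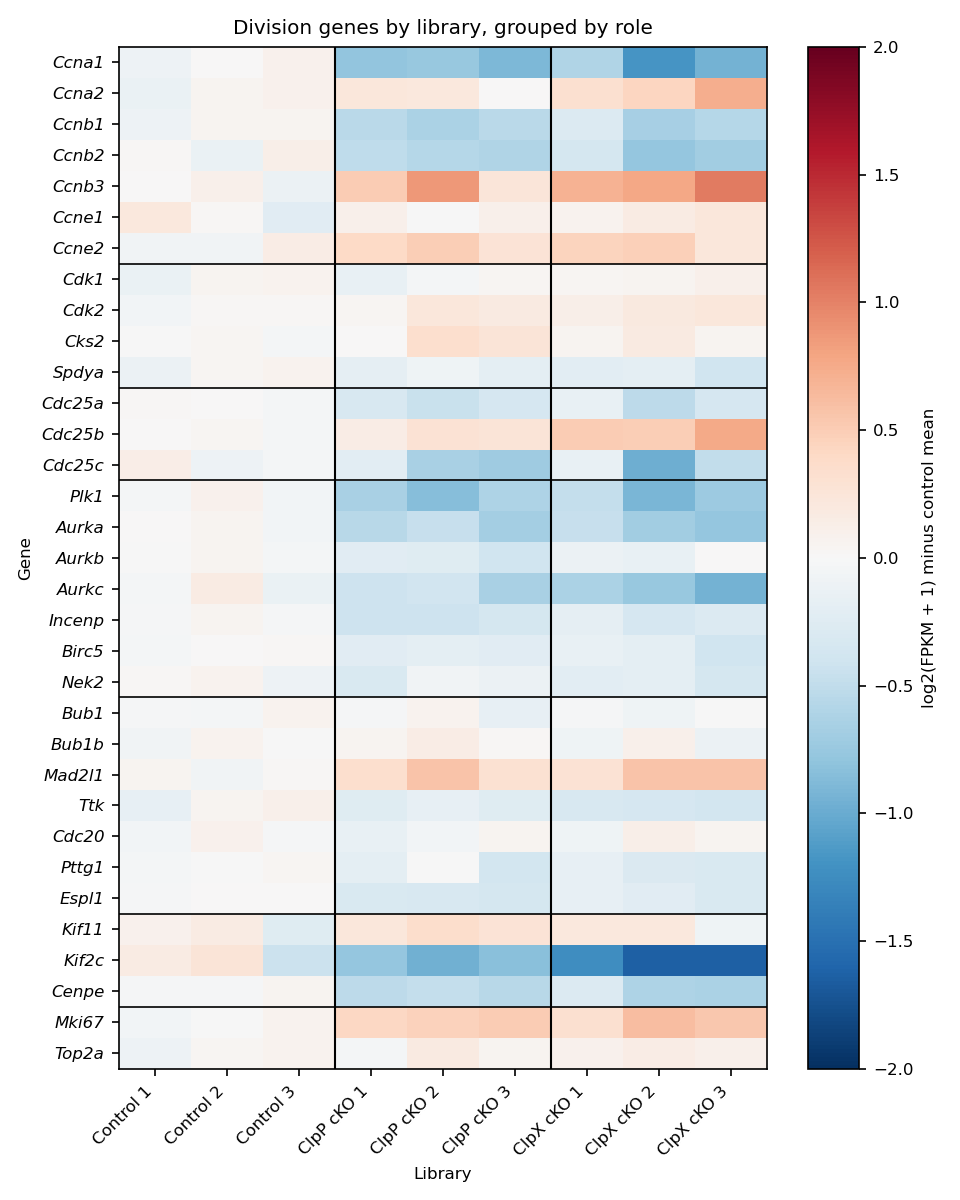
Heat map of the 33 division genes (rows, grouped by role with black lines) in the 9 libraries (columns). Colour gives log2(FPKM + 1) minus the mean of the 3 controls. The rows of Ccna1, Plk1 and Kif2c are blue in all 6 knockout libraries, and the rows of Ccnb3, Mad2l1 and Mki67 are red in all 6.

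The balance of rises and falls depended on how the libraries were scaled to each other. With each library scaled to its own total of gene reads, the median of all tested genes moved to 0.16 in ClpP cKO and 0.18 in ClpX cKO. Then 10 division genes rose and 9 fell in ClpP cKO (34.7% and 13.9% of all tested genes), and 13 rose and 8 fell in ClpX cKO (42.7% and 24.7%). Quantile normalization gave 9 rises and 10 falls in ClpP cKO (22.6% and 16.04% of all tested genes) and 10 rises and 9 falls in ClpX cKO (36.5% and 27.2%). Under it the members fell in ClpX cKO about as often as all genes (27.3%). With own totals the same held in ClpX cKO, where 24.2% of the members fell and 39.4% rose. In ClpP cKO the members still fell more often than all genes, at 30.3% under quantile normalization and 27.3% with own totals. Calls were therefore compared over 5 scalings: the values as deposited, median-of-ratios factors, quantile normalization, own totals, and limma voom on recovered reads. In ClpP cKO 8 genes fell under all 5 (Ccna1, Ccnb1, Plk1, Aurka, Aurkc, Incenp, Kif2c and Cenpe) and 4 rose under all 5 (Ccnb3, Ccne2, Mad2l1 and Mki67). In ClpX cKO 6 fell under all 5 (Ccna1, Ccnb1, Plk1, Aurkc, Kif2c and Cenpe) and 6 rose under all 5 (Ccna2, Ccnb3, Ccne2, Cdc25b, Mad2l1 and Mki67).

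Levels of cell type markers moved in the same libraries. The summed FPKM of 13 pachytene and diplotene genes ran from 4709 to 4989 among control libraries, 3741 to 3865 among those of ClpP cKO and 2798 to 3612 among those of ClpX cKO, with 6 and 9 of the 13 lower and 1 higher in each. For 14 early prophase genes it was 457 to 517, 557 to 638 and 595 to 650 (10 higher in each). For 12 spermatogonial genes it was 72.8 to 81.5, 96.0 to 111.9 and 114.0 to 143.7 (8 and 10 higher, 0 and 1 lower). The spermatogonial gene that fell in ClpX cKO was Gfra1 (-0.34). For 12 round spermatid genes it was 1041 to 1198, 544 to 714 and 335 to 587 (11 and 12 lower), and for 13 elongating spermatid genes 8337 to 18319, 4808 to 5724 and 1717 to 2650 (13 lower in each). Among somatic markers, 12 Sertoli cell genes summed to 575 to 594, 802 to 893 and 1031 to 1429 FPKM (12 higher in each), and 10 immune cell genes to 47.5 to 55.0, 60.0 to 85.7 and 89.5 to 108.7 (4 and 9 of 9 tested higher). Leydig cell genes summed to 202 to 400, 369 to 533 and 349 to 529 (0 and 2 of 7 higher), and peritubular and stromal genes to 61.1 to 94.5, 82.1 to 104.6 and 94.3 to 148.4 (2 and 5 of 7 tested higher), with ranges that overlapped the controls in part. The markers Hspa2 and Mybl1 also stand in a list of division genes. Of all tested genes 20.7% rose and 24.0% fell in ClpP cKO, and 32.1% rose and 33.5% fell in ClpX cKO. Of the Leydig cell genes 0% rose in ClpP cKO and 28.6% in ClpX cKO. Of the peritubular and stromal genes 28.6% rose in ClpP cKO. With only 7 genes tested in each of these lists, these shares were not far from the background. No marker was at 0 in any library. The part of these shifts in the changes of the division genes was not tested.

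Promoters of cell cycle genes often carry CCAAT boxes, bound by NF-Y, and a cell cycle homology region (CHR), bound by the MuvB complex. RefSeq promoters (GRCm38.p6, 250 bases before to 50 after the start) were found for 28 of the 33 genes. A CCAAT on either strand was in 22 of the 28, against 37.4% of all 32851 promoters of the same length. A CHR, searched as TTTGAA or TTCGAA on both strands, was in 14 of the 28 (19.2% of all), and both elements in 13 (7.52% of all). An E2F motif was in 5 (10.7% of all). Its letters were TTCGCG, the unrelated run TTGGCG, or the longer run TTTGGCGC that contains the latter. A MYB motif, searched by the letters AACNGTT and in addition by the letters CAACGG, was in 4 (9.09% of all). An E2F match on the reverse strand can share bases with a CCAAT. A match is a run of letters and not a shown binding site.

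The motifs were found in genes that fell, in genes that rose and in genes that did not pass. CCAAT was in 12 of the 15 genes with a promoter that fell in ClpX cKO, in 2 of the 4 that rose and in 8 of the 9 that did not pass, and CCAAT with CHR in 5, 2 and 6. The 150 bases before the start are printed for 3 genes that fell, Ccnb2 (chr9:70421555-70421704, minus strand), Plk1 (chr7:122159285-122159434, plus strand) and Aurka (chr2:172370571-172370720, minus strand), for Top2a, which did not pass as deposited (chr11:99024190-99024339, minus strand), and for Mki67, which rose (chr7:135716380-135716529, minus strand). They were picked after their calls were known to show each kind of call, among the genes whose window lies outside the gene in the deposited table. Capitals mark the letters of CCAAT, CHR, E2F and MYB motifs on either strand, and each sequence runs 5′ to 3′ towards the start.
Ccnb2: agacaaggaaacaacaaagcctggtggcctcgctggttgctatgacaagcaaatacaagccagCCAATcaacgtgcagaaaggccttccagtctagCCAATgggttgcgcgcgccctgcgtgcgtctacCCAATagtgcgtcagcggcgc
Plk1: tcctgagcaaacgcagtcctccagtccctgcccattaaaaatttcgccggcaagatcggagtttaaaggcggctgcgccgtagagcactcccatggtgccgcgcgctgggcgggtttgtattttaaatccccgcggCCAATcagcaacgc
Aurka: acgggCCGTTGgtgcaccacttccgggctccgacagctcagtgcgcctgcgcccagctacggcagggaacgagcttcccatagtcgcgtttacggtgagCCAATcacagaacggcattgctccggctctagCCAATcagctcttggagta
Top2a: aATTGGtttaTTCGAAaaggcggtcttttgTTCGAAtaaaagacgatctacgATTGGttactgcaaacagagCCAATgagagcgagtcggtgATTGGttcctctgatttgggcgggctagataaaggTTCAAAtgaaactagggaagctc
Mki67: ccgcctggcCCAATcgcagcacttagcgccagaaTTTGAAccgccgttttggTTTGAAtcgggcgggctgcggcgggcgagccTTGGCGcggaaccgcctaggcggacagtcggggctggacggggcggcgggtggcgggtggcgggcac
In the printed 150 bases Ccnb2 has 3 CCAAT boxes, Aurka 2, Plk1 1, Top2a 4 and Mki67 1, and CHR letters occur in Top2a (3) and Mki67 (2). In the 300-base window behind the counts above, Ccnb2 (2), Plk1 (1) and Aurka (1) hold CHR letters as well, outside the printed stretch.

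Cyclins split into members that fell and members that rose. Ccna1 (ENSMUSG00000027793, chromosome 3, 55045469 to 55055501), the A-type cyclin of meiotic germ cells, had 74.2, 80.2 and 84.0 FPKM in control libraries, 45.6, 46.5 and 42.3 in those of ClpP cKO and 51.8, 34.3 and 40.7 in those of ClpX cKO. Every knockout library lay below every control. On the log2 scale of FPKM + 1, on which all changes other than those from voom are given (voom uses log2 reads scaled to library size), the fall was 0.81 (SE 0.13, adjusted p = 0.0086) with ClpP lost and 0.91 (SE 0.13, adjusted p = 0.00067) with ClpX lost. Ccna2 (ENSMUSG00000027715, chromosome 3, 36564865 to 36572150), the A-type cyclin of mitotic cells, was far lower, with 2.91, 3.45 and 3.58 FPKM in control libraries, 4.02, 3.97 and 3.33 in those of ClpP cKO and 4.39, 4.79 and 6.10 in those of ClpX cKO. It rose in ClpX cKO, where no library overlapped the controls (0.49, SE 0.12, adjusted p = 0.0073). In ClpP cKO the groups overlapped and the change of 0.15 (SE 0.12) did not pass.

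The B-type cyclins behaved in the same divided way. Ccnb1 (chromosome 13, 100778650 to 100786570), the main partner of CDK1, had 19.8, 22.04 and 22.1 FPKM in control libraries, 14.3, 13.3 and 14.4 in those of ClpP cKO and 17.5, 13.1 and 14.0 in those of ClpX cKO. The fall was 0.57 (SE 0.10, adjusted p = 0.0087) and by 0.50 (SE 0.10, adjusted p = 0.0031), with the knockout libraries all below the controls. Ccnb2, the most abundant cyclin of the set, had 102, 92.0 and 109 FPKM in control libraries, 70.6, 67.8 and 66.6 in those of ClpP cKO and 78.8, 58.7 and 62.0 in those of ClpX cKO. Its falls of 0.56 and 0.61 (SE 0.11 each) separated all knockout libraries from the controls, but under quantile normalization the changes were -0.19 and -0.12 and did not pass. Ccnb3 (X chromosome, 6979652 to 7041619), a cyclin transcribed early in meiotic prophase, went the other way. It had 1.59, 1.79 and 1.40 FPKM in control libraries, 2.66, 3.72 and 2.07 in those of ClpP cKO and 3.18, 3.40 and 4.31 in those of ClpX cKO, without overlap. The rise was 0.83 with ClpX lost (SE 0.16, adjusted p = 0.0024) and 0.54 with ClpP lost (SE 0.16, adjusted p = 0.030). The ClpP cKO call was lost without Control 1 (0.54), Control 2 (0.59), Control 3 (0.48), ClpP cKO 1 (0.56) or ClpP cKO 2 (0.37).

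E-type cyclins drive entry into DNA replication through CDK2. Ccne2 had 8.77, 8.73 and 10.3 FPKM in control libraries, 12.6, 13.4 and 11.4 in those of ClpP cKO and 13.0, 13.3 and 10.97 in those of ClpX cKO. It rose in each, with no overlap (0.39, SE 0.10, adjusted p = 0.017, and 0.38, SE 0.10, adjusted p = 0.0090). The ClpP cKO call was lost without Control 1 (0.35), Control 2 (0.35) or ClpP cKO 2 (0.34). Ccne1 did not pass in either comparison. It lay between 2.73 and 4.07 FPKM in the controls, a range that held all ClpP cKO libraries and all but 1 ClpX cKO library. With own totals its ClpX cKO change was 0.33 and passed.

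**Figure D2:**
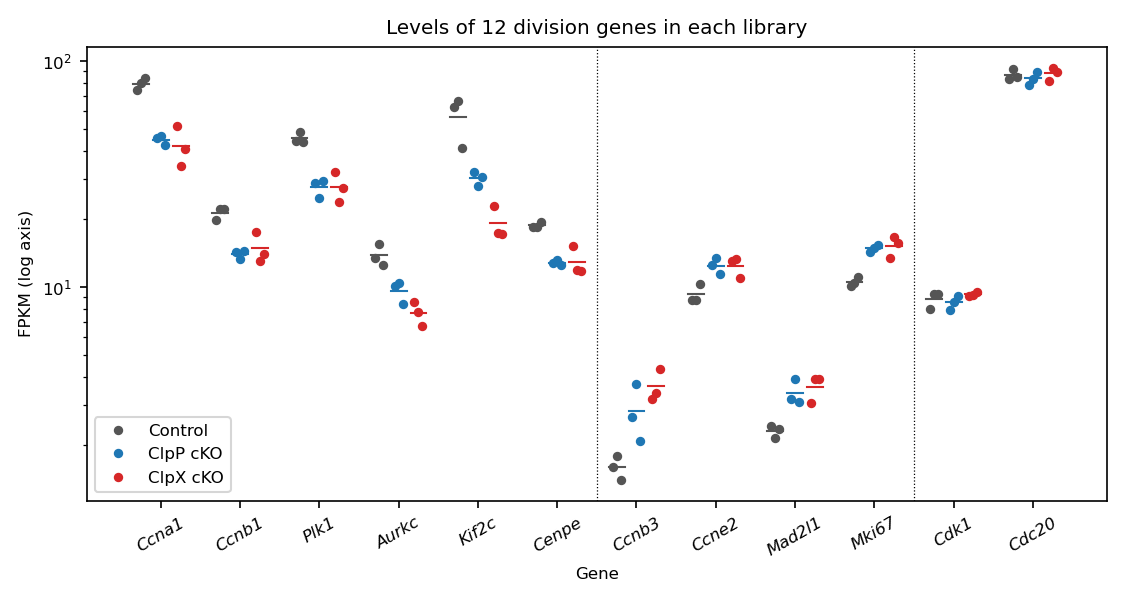
FPKM (log axis) of 12 division genes in each of the 9 libraries, with a short line at each group mean (n = 3). In the left block the knockout points lie below the control points, in the middle block above them, and for Cdk1 and Cdc20 on the right the groups overlap.

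The catalytic partners of these cyclins did not pass as deposited. Cdk1, the kinase of entry into division, had 7.997, 9.26 and 9.29 FPKM in control libraries, 7.90, 8.60 and 9.14 in those of ClpP cKO and 9.12, 9.20 and 9.51 in those of ClpX cKO. The groups overlapped, and the changes of -0.04 and 0.06 (SE 0.08 each) did not pass as deposited. With own totals the ClpX cKO change was 0.27 and passed. Cdk2, needed for meiotic prophase, was at 17.6 to 18.8 FPKM in the controls, 18.8 to 21.8 in ClpP cKO and 19.9 to 21.6 in ClpX cKO. Its ranges did not overlap with those of the controls, yet 0.15 (adjusted p = 0.12) and 0.18 (adjusted p = 0.054) did not pass. The ClpP cKO change passed under quantile normalization (0.26) and own totals (0.32). The ClpX cKO change passed under quantile normalization (0.34), own totals (0.39) and voom (0.21), and also without ClpP cKO 1 (0.18) or ClpX cKO 1 (0.21). Cks2, a small CDK-binding subunit, had the highest control level of the 33 genes, 105 ± 2.64 FPKM (mean ± SD, n = 3), and did not pass in either comparison (0.20 and 0.10, SE 0.09 each). Without ClpP cKO 1 its ClpP cKO change was 0.29 and passed. Both changes passed under quantile normalization (0.59 and 0.64) and own totals (0.38 and 0.32).

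Spdya, an activator of CDK2 at telomeres in prophase, fell in ClpX cKO. It was at 29.0, 32.6 and 33.4 FPKM in the controls and 27.2, 27.4 and 23.7 in ClpX cKO, where it fell by 0.27 (SE 0.08, adjusted p = 0.018). The groups did not overlap, but the call was lost without Control 2 (-0.25), Control 3 (-0.23) or ClpX cKO 3 (-0.20). It was 0.01 under quantile normalization and -0.05 with own totals, and passed in neither. In ClpP cKO, with libraries at 27.7, 29.6 and 27.4 FPKM, the change of -0.16 did not pass.

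The 3 Cdc25 phosphatases, which remove the inhibitory phosphates from CDKs, differed. Cdc25a had 13.6, 13.4 and 13.0 FPKM in control libraries, 10.5, 9.53 and 10.3 in those of ClpP cKO and 11.97, 8.99 and 10.4 in those of ClpX cKO. The fall was 0.37 (SE 0.10, adjusted p = 0.018) and 0.33 (SE 0.10, adjusted p = 0.014) without overlap, but not with own totals (-0.19 and -0.12), and the ClpP cKO call was lost without Control 1 (-0.35), Control 2 (-0.36), ClpP cKO 2 (-0.33) or ClpP cKO 3 (-0.38). Cdc25b had the lowest control level of the set, 1.09, 1.14 and 1.02 FPKM, beside 1.32, 1.53 and 1.49 in ClpP cKO and 1.96, 1.92 and 2.52 in ClpX cKO. Every knockout library exceeded the controls. It rose in ClpX cKO (0.58, SE 0.11, adjusted p = 0.0017) and did not pass in ClpP cKO (0.23, SE 0.11) other than with own totals (0.33). It had 52 to 160 reads per library. Cdc25c, active at entry into division, had 10.04, 8.43 and 8.84 FPKM in control libraries, 7.67, 5.46 and 5.18 in those of ClpP cKO and 8.13, 4.15 and 6.16 in those of ClpX cKO. Its fall of 0.54 in ClpX cKO passed narrowly (SE 0.21, adjusted p = 0.047) and was lost without Control 1 (-0.47), Control 2 (-0.58), Control 3 (-0.55), ClpP cKO 2 (-0.54), ClpP cKO 3 (-0.54), ClpX cKO 2 (-0.32) or ClpX cKO 3 (-0.56), and with own totals (-0.34). In ClpP cKO the change of -0.52 did not pass, but did without ClpP cKO 1 (-0.67), ClpX cKO 1 (-0.52) or ClpX cKO 2 (-0.52).

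Of the 7 genes of the Polo, Aurora and NIMA kinases with the chromosomal passenger complex, 6 fell in each knockout as deposited (85.7%). Of all tested genes 24.0% fell in ClpP cKO and 33.5% in ClpX cKO. Aurkb was called only in ClpP cKO and Nek2 only in ClpX cKO. Under all 5 scalings only Plk1, Aurka, Aurkc and Incenp fell in ClpP cKO, and only Plk1 and Aurkc in ClpX cKO. Plk1 (ENSMUSG00000030867, chromosome 7, 122159439 to 122169873), the Polo kinase of spindle assembly and cytokinesis, had 44.4, 48.6 and 44.0 FPKM in control libraries, 28.9, 24.8 and 29.5 in those of ClpP cKO and 32.4, 23.8 and 27.3 in those of ClpX cKO. No knockout library reached the controls. Plk1 fell by 0.70 in both (SE 0.11, adjusted p = 0.0086 and 0.0010). Aurka, the Aurora kinase of the spindle poles, had 67.7, 70.5 and 64.7 FPKM in control libraries, 45.5, 48.6 and 42.0 in those of ClpP cKO and 49.0, 41.5 and 39.3 in those of ClpX cKO, again without overlap. The fall was 0.57 (SE 0.09, adjusted p = 0.0086) and 0.64 (SE 0.09, adjusted p = 0.00067). Under quantile normalization the ClpX cKO change was -0.21 and did not pass.

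Aurora B and Aurora C are the kinases of the passenger complex, which corrects wrong attachments of chromosomes, and the C form is found mainly in germ cells. Aurkc (ENSMUSG00000070837, chromosome 7, 6995300 to 7003091) had 13.5, 15.6 and 12.6 FPKM in control libraries, 10.1, 10.4 and 8.42 in those of ClpP cKO and 8.53, 7.76 and 6.73 in those of ClpX cKO. The fall was 0.48 (SE 0.11, adjusted p = 0.014) and by 0.78 (SE 0.11, adjusted p = 0.00069), with no library of a knockout among the controls. Aurkb was lower, with 5.93, 6.27 and 5.80 FPKM in control libraries, 4.98, 4.91 and 4.33 in those of ClpP cKO and 5.48, 5.31 and 6.01 in those of ClpX cKO. It fell by 0.29 in ClpP cKO (SE 0.08, adjusted p = 0.020), and in ClpX cKO its libraries overlapped with the controls and -0.09 (SE 0.08) did not pass. The ClpP cKO call of Aurkb was lost without Control 1 (-0.29), Control 2 (-0.26), ClpP cKO 2 (-0.31) or ClpP cKO 3 (-0.24), and with own totals (-0.13).

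The scaffold and targeting subunits of that complex fell as well. Incenp, which holds the complex together, had 23.6, 24.8 and 23.4 FPKM in control libraries, 17.8, 17.6 and 18.6 in those of ClpP cKO and 21.1, 18.8 and 19.5 in those of ClpX cKO, a fall of 0.39 (SE 0.06, adjusted p = 0.0086) and 0.26 (SE 0.06, adjusted p = 0.0062). Birc5 (survivin) was at 15.4 to 16.1 FPKM in the controls, 13.3 to 13.7 in ClpP cKO and 11.9 to 14.2 in ClpX cKO, a fall of 0.22 and 0.25 (SE 0.07 each). In ClpX cKO neither passed with own totals (-0.05 for Incenp, -0.04 for Birc5) or under quantile normalization (-0.06 and -0.16). The ClpP cKO call of Birc5 (adjusted p = 0.039) was lost under quantile normalization (-0.15), own totals (-0.05) and voom (-0.21), and without any 1 of Control 1 (-0.24), Control 2 (-0.21), Control 3 (-0.21), ClpP cKO 1 (-0.22), ClpP cKO 2 (-0.23), ClpP cKO 3 (-0.21) or ClpX cKO 2 (-0.22). Nek2, a kinase that parts the centrosomes, was at 68.1, 70.5 and 62.1 FPKM in the controls and 57.8, 57.9 and 52.0 in ClpX cKO. It fell by 0.25 there (SE 0.09, adjusted p = 0.028), a call lost without Control 1 (-0.24), Control 2 (-0.22) or ClpX cKO 3 (-0.20), and it did not pass under quantile normalization (0.18) or with own totals (-0.03). In ClpP cKO (54.1, 63.7 and 61.5 FPKM) its change of -0.16 did not pass.

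**Figure D3:**
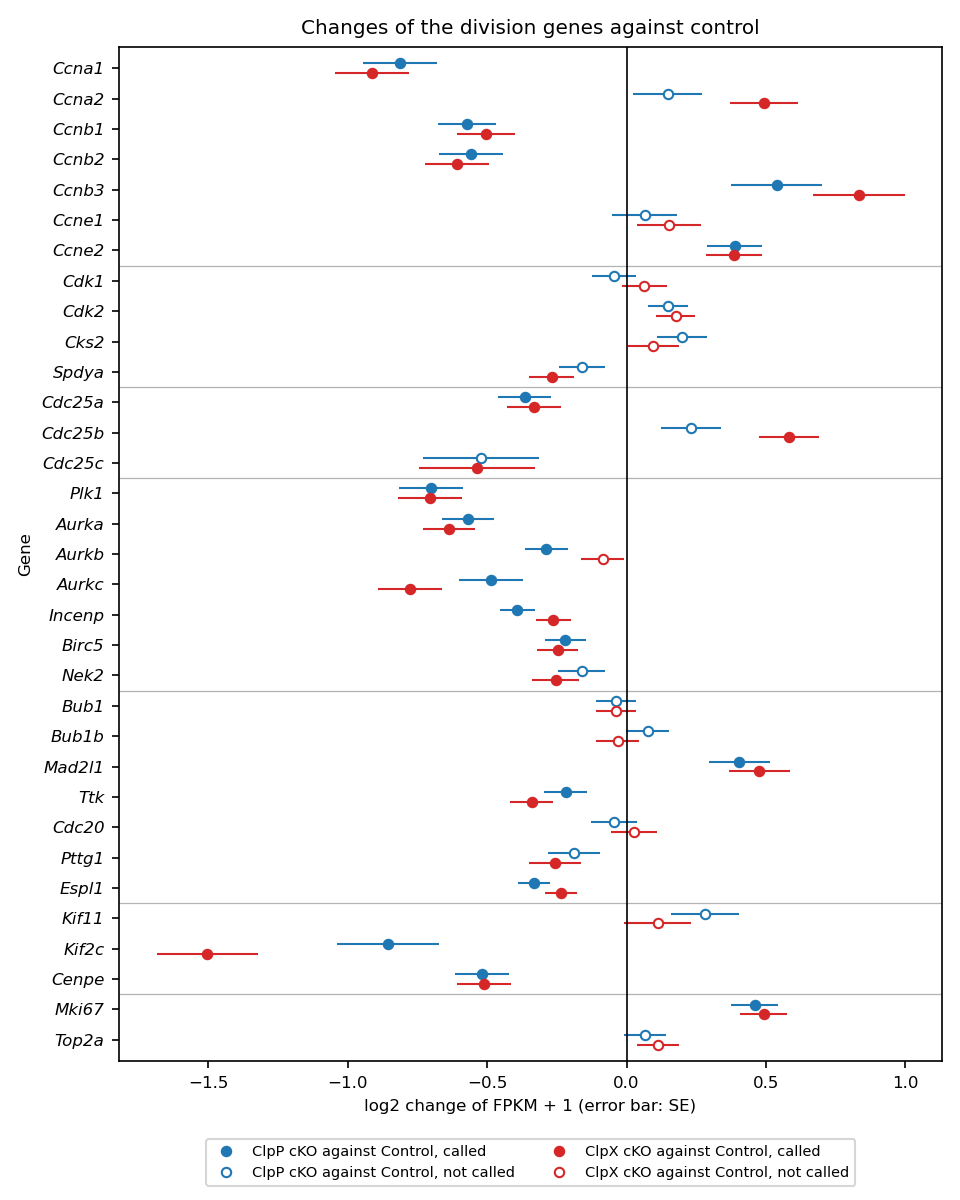
log2 change of FPKM + 1 against control for each of the 33 division genes, with the SE as error bar, for ClpP cKO (blue) and ClpX cKO (red). Filled points have an adjusted p under 0.05. Kif2c lies farthest to the left at -1.503 in ClpX cKO, and Ccnb3 farthest to the right at 0.83.

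Spindle checkpoint genes included the members nearest to the control level. Of 7 checkpoint and anaphase genes, 2 fell (28.6%) and 1 rose (14.3%) in ClpP cKO. In ClpX cKO 3 fell (42.9%) and 1 rose (14.3%). Of all tested genes 24.0% fell and 20.7% rose in ClpP cKO, and 33.5% fell and 32.1% rose in ClpX cKO. With only 7 genes, these shares of falls were not far from the background. Bub1, Bub1b and Cdc20, the checkpoint kinase, its relative BubR1 and the activator of the anaphase-promoting complex, did not pass in either comparison and lay within 0.08 of the control. Their controls were at 23.8 ± 1.02, 20.3 ± 1.06 and 86.6 ± 4.61 FPKM (mean ± SD, n = 3). Cdc20 did pass upwards under quantile normalization, at 0.32 in ClpP cKO and 0.52 in ClpX cKO, and with own totals in ClpX cKO (0.25). Bub1b passed upwards with own totals in ClpP cKO (0.25).

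Mad2l1, whose product MAD2 binds and blocks CDC20, was the checkpoint gene that rose. It had 2.42, 2.15 and 2.36 FPKM in control libraries, 3.19, 3.90 and 3.09 in those of ClpP cKO and 3.06, 3.89 and 3.91 in those of ClpX cKO, with no overlap. The rise was 0.40 (SE 0.11, adjusted p = 0.020) and 0.48 (SE 0.11, adjusted p = 0.0051). The first was lost without Control 2 (0.37) or ClpP cKO 2 (0.32). Ttk, the kinase MPS1 that starts checkpoint signalling, had 12.9, 15.1 and 15.7 FPKM in control libraries, 12.1, 12.8 and 12.2 in those of ClpP cKO and 11.5, 11.3 and 11.01 in those of ClpX cKO. It fell by 0.34 in ClpX cKO (SE 0.08, adjusted p = 0.0049), but with own totals by 0.13, which did not pass. Its ClpP cKO fall of 0.22 (adjusted p = 0.049) was lost under quantile normalization (-0.15), own totals (-0.05) and voom (-0.21), and without Control 2 (-0.19), Control 3 (-0.17), ClpP cKO 1 (-0.20), ClpP cKO 2 (-0.24), ClpP cKO 3 (-0.21), ClpX cKO 2 (-0.22) or ClpX cKO 3 (-0.22).

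Separase and its inhibitor securin act after the checkpoint, at anaphase. Espl1 (separase) had 25.6, 26.2 and 26.2 FPKM in control libraries, 20.7, 20.5 and 20.05 in those of ClpP cKO and 23.0, 22.03 and 20.8 in those of ClpX cKO. The fall was 0.33 (SE 0.06, adjusted p = 0.0086) and 0.23 (SE 0.06, adjusted p = 0.0071) without overlap, but neither change passed with own totals (-0.15 and -0.02) or under quantile normalization (-0.18 and -0.01). Pttg1 (securin) was at 30.2, 30.8 and 31.7 FPKM in the controls and 27.3, 25.1 and 24.7 in ClpX cKO. It fell there by 0.26 (adjusted p = 0.036), a call lost without Control 1 (-0.27), Control 2 (-0.26), Control 3 (-0.24), ClpP cKO 1 (-0.26), ClpX cKO 2 (-0.24) or ClpX cKO 3 (-0.23). It did not pass under quantile normalization (0.01) or with own totals (-0.04). In ClpP cKO, at 27.0, 30.8 and 23.7 FPKM, its change of -0.19 did not pass.

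Kif2c showed the largest change of the 33 genes in each knockout. Its product MCAK takes microtubules apart at centromeres. Kif2c (ENSMUSG00000028678, chromosome 4, 117159639 to 117182639) had 62.4, 66.6 and 41.1 FPKM in control libraries, 32.2, 28.0 and 30.7 in those of ClpP cKO and 22.8, 17.3 and 17.2 in those of ClpX cKO. Control 3 was the lowest control and still above every knockout library. The fall was 0.85 with ClpP lost (SE 0.18, adjusted p = 0.011) and 1.503 with ClpX lost (SE 0.18, adjusted p = 0.00046). Without Control 3 and ClpX cKO 1 the changes were -1.07 and -1.84. Cenpe, the kinesin that moves chromosomes to the spindle equator, had 18.4, 18.3 and 19.5 FPKM in control libraries, 12.7, 13.1 and 12.5 in those of ClpP cKO and 15.3, 11.8 and 11.7 in those of ClpX cKO. The fall was 0.52 (SE 0.10, adjusted p = 0.0089) and 0.51 (SE 0.10, adjusted p = 0.0020), with the knockouts below all controls. Kif11, the motor that pushes the spindle poles apart, did not pass (0.28 and 0.11, SE 0.12 each). It had 16.1, 17.1 and 12.6 FPKM in control libraries, 17.9, 19.6 and 18.4 in those of ClpP cKO and 17.6, 17.7 and 14.3 in those of ClpX cKO. Its ClpP cKO change passed under quantile normalization (0.36), own totals (0.46) and voom (0.32), and its ClpX cKO change with own totals (0.32).

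Of the 2 markers of proliferating cells, Mki67 rose and Top2a did not pass. Mki67 (Ki-67, a coat of mitotic chromosomes) had 10.1, 10.5 and 11.02 FPKM in control libraries, 14.3, 14.9 and 15.3 in those of ClpP cKO and 13.4, 16.6 and 15.7 in those of ClpX cKO. All knockout libraries lay above the controls, and the rise was 0.46 (SE 0.08, adjusted p = 0.0088) and 0.49 (SE 0.08, adjusted p = 0.0013). Top2a, the topoisomerase that untangles chromosomes, was at 31.9 ± 2.02, 33.5 ± 2.57 and 34.6 ± 0.791 FPKM in the 3 groups (mean ± SD, n = 3). It passed with higher values in both knockouts under quantile normalization (0.28 and 0.43) and with own totals (0.24 and 0.33).

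Some of these genes share bases with a neighbour, mostly on the other strand, and whether strand was used in counting is not given in the sources used here. Ccna2 overlaps Exosc9 over 863 bases, Ccne2 overlaps Ints8 over 5622 bases, and Cdc25b overlaps Spef1 over 334 bases. Exosc9 was at 0.32 and 0.24 in the 2 knockouts and did not pass. Ints8 rose by 0.33 and 0.39, and Spef1 fell by 0.41 and 0.73, opposite to Cdc25b. Spdya shares 32507 bases of its span with the antisense gene Trmt61b and 4483 with Mettl4-ps1, a pseudogene on the same strand. Neither passed in either comparison, at 0.28 and 0.07 for Trmt61b and -0.09 and -0.23 for Mettl4-ps1. Ccna1 overlaps 4931419H13Rik over 260 bases, which was at 0.01 in ClpP cKO and fell by 0.66 in ClpX cKO. Reads in such stretches cannot be assigned to either gene from these values.

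Direct comparison of the knockouts called none of the 33 genes. In ClpX cKO against ClpP cKO limma called 0 of 33 in either direction, with 5 at an unadjusted p under 0.05, and voom also called 0. Of the 17266 tested genes 4801 had an unadjusted p under 0.05, a larger share than among the 33. Over all genes 0.0463% were called higher and 0.0579% lower. Among the 33 genes the differences of Bub1 (0.00, SE 0.07), Plk1 (0.00, SE 0.11) and Ccne2 (0.00, SE 0.10) lay closest to 0. The smallest adjusted p, 0.093, was that of Kif2c, which was lower by 0.65 (SE 0.18) in ClpX cKO, where all libraries lay below those of ClpP cKO. Kif2c passed without Control 3 (-0.65) or without ClpX cKO 1 (-0.78). Ccna2 (0.35, SE 0.12) and Cdc25b (0.35, SE 0.11) were higher in every ClpX cKO library than in every ClpP cKO library and passed only without ClpX cKO 1, at 0.43 and 0.39. With Control 3 and ClpX cKO 1 both left out, Kif2c (-0.78) and Ccna2 (0.43) were called.

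Ratios of 2 division genes within a library are free of any factor that scales the whole library, though not of quantile normalization, and 12 such ratios of deposited FPKM, chosen after their values were seen, were compared. Ccna1 to Ccna2, the meiotic against the mitotic A-type cyclin, was 25.5, 23.3 and 23.5 in control libraries, 11.4, 11.7 and 12.7 in those of ClpP cKO and 11.8, 7.18 and 6.67 in those of ClpX cKO. The level of the meiotic form was thus still several times that of the mitotic form in every knockout library, but by a smaller factor than in any control. Ccnb1 to Cdk1 was 2.47, 2.38 and 2.38 in control libraries, 1.82, 1.55 and 1.57 in those of ClpP cKO and 1.92, 1.42 and 1.47 in ClpX cKO, so that less cyclin B1 transcript stood against each CDK1 transcript in all 6 knockout libraries. Aurkc to Aurkb was 2.31 ± 0.161, 2.03 ± 0.0857 and 1.38 ± 0.229 (mean ± SD, n = 3) in the controls, then ClpP cKO, then ClpX cKO, with no overlap between any 2 groups. Kif2c to Kif11 likewise separated all 3 groups, at 3.68 ± 0.363, 1.63 ± 0.191 and 1.16 ± 0.162.

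Each of these separations had an exact two-sided permutation p of 0.1 (adjusted p = 0.15 over 36 tests), the smallest that 3 libraries against 3 can give. Cenpe to Bub1b, a motor against a checkpoint kinase, was 0.924 ± 0.0590, 0.595 ± 0.0142 and 0.656 ± 0.129 in the same order. Ccnb3 to Ccna2, both of which were higher in ClpX cKO, was 0.486 ± 0.0834, 0.741 ± 0.171 and 0.715 ± 0.00968. By contrast Ccnb1 to Ccnb2 overlapped between controls and knockouts (0.212 ± 0.0246, 0.205 ± 0.00973 and 0.223 ± 0.00171, exact permutation p = 0.9 and 0.4). Ccne2 to Ccne1 overlapped as well (2.83 ± 0.849, 3.49 ± 0.449 and 3.23 ± 0.496, exact permutation p = 0.3 and 0.5).

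**Figure D4:**
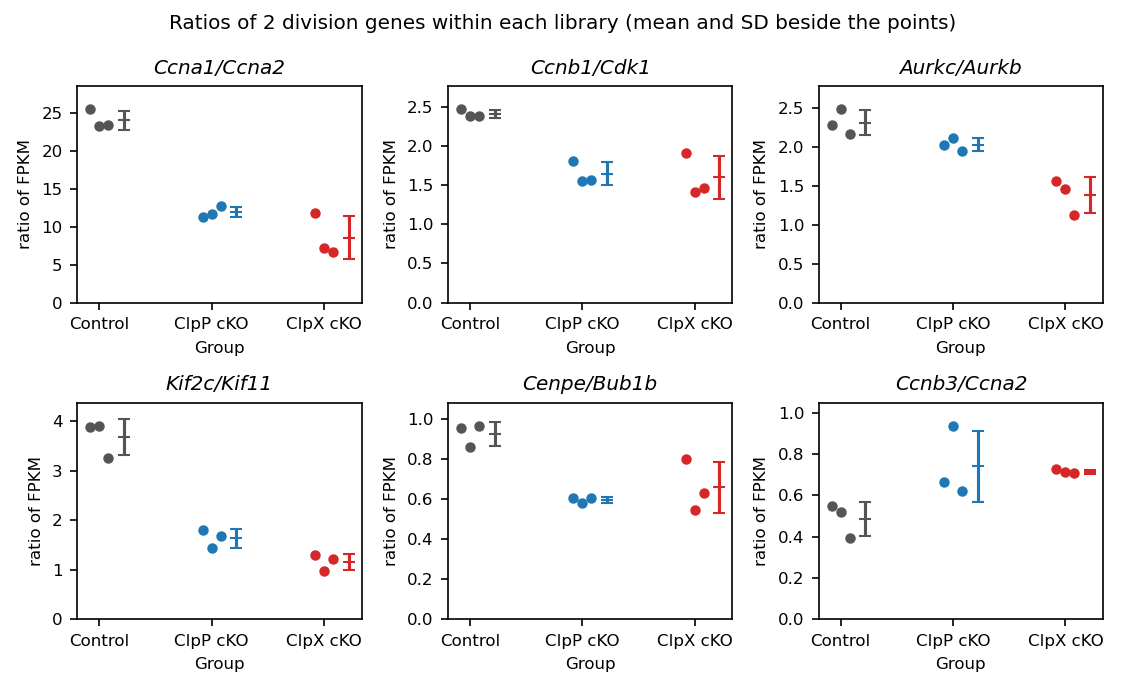
Ratios of the FPKM of 2 division genes in each library (points) by group, with the mean and SD beside them (n = 3). The controls lie above all knockout libraries except for Ccnb3 to Ccna2, where they lie below.

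The wider machinery of division was read from 10 further lists with 174 genes, of which 168 were tested. In ClpP cKO 51 rose (30.4%) and 25 fell (14.9%), with a median of 0.10, and in ClpX cKO 74 rose (44.0%) and 35 fell (20.8%), with a median of 0.15. Of all tested genes 20.7% rose and 24.0% fell in ClpP cKO and 32.1% rose and 33.5% fell in ClpX cKO, and of protein-coding genes 29.5%, 25.2%, 41.5% and 31.3%, so that the share of rises was near that of protein-coding genes. The counts of single lists stand against these shares, and ClpX cKO against ClpP cKO called none. These lists hold DNA replication, cohesin, condensin and other functions that are not confined to the divisions themselves.

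Among 24 tested DNA replication genes 10 rose (41.7%) and 2 fell (8.33%) in ClpP cKO and 12 of 24 rose and 3 fell (12.5%) in ClpX cKO. Cdt1, which loads the replicative helicase, had 2.23 ± 0.262, 3.57 ± 0.219 and 4.67 ± 0.520 FPKM (mean ± SD, n = 3) in the 3 groups. It rose by 0.50 and 0.81, and Mcm4, a subunit of that helicase, by 0.45 and 0.76 (SE 0.10 each). Of 19 genes of the anaphase-promoting complex and its regulators 6 rose (31.6%) and 4 fell (21.1%) in ClpP cKO, near the shares of protein-coding genes, and 11 rose (57.9%) and 4 fell (21.1%) in ClpX cKO, with the subunits Anapc1 at 0.46 and 0.60 and Anapc4 at 0.34 and 0.46. Condensin, which compacts chromosomes, had 3 (37.5%) and 5 (62.5%) of 8 genes higher and 0 and 1 lower. Ncaph2 and Ncapg2, both of the condensin II complex, rose by 0.40 and 0.55 and by 0.39 and 0.40.

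Cohesin genes and their regulators went both ways, with 8 of 19 higher (42.1%) and 5 lower (26.3%) in ClpP cKO and 10 higher (52.6%) and 6 lower (31.6%) in ClpX cKO. Cdca5 (sororin), which protects cohesin, fell from 17.9 ± 0.215 FPKM to 13.9 ± 0.547 and 11.5 ± 0.139, while Esco2, which acetylates cohesin in replication, rose from 2.67 ± 0.143 to 4.56 ± 0.243 and 4.77 ± 0.530. Among 22 kinetochore genes and checkpoint partners 8 rose (36.4%) and 1 fell (4.55%) in ClpP cKO, and 7 rose (31.8%, near the share of all tested genes) and 4 fell (18.2%) in ClpX cKO. Haspin, the kinase whose mark recruits the passenger complex to centromeres and which is abundant in haploid germ cells, was at 309 ± 12.9, 190 ± 16.3 and 153 ± 31.5 FPKM. It fell by 0.70 (adjusted p = 0.0093) and 1.03 (adjusted p = 0.00051), though under quantile normalization the ClpP cKO change was -0.17 and did not pass. Cenpn, which reads centromeric chromatin, fell in ClpX cKO (-0.52), but not under quantile normalization (-0.13), and was at -0.21 in ClpP cKO, which passed only with median-of-ratios factors (-0.23). Haspin lies on the opposite strand within another gene, Itgae, and Ncaph2 overlaps Tymp.

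Of 10 tested CDK inhibitors and inhibitory kinases 1 rose and 4 fell in ClpP cKO, and 4 rose and 4 fell in ClpX cKO, where the share of rises (4 of 10) was near that of protein-coding genes. Cdkn1a (p21) had 2.57, 2.21 and 1.65 FPKM in control libraries, 3.75, 3.73 and 3.56 in those of ClpP cKO and 4.36, 4.86 and 4.92 in those of ClpX cKO, a rise of 0.58 and 0.87 (SE 0.11 each). Cdkn1c (p57), another inhibitor of the same family, did the opposite, at 5.21, 5.27 and 3.42, then 1.82, 1.77 and 2.24, then 1.34, 1.121 and 1.61 FPKM, a fall of 0.92 and 1.24 (SE 0.16 each). Neither gene overlapped between controls and knockouts. Among 16 other cyclins and CDKs 6 (37.5%) and 9 (56.2%) rose and 2 (12.5%) and 3 (18.8%) fell. Ccnk, a cyclin of transcription kinases, fell by 0.50 and 0.85, of which the first was lost under quantile normalization (-0.06), and Cdk5, a kinase outside the cell cycle, rose by 0.53 and 0.80.

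In the list of entry into meiotic division, 4 of 11 tested genes rose in each knockout (36.4%) and 2 (18.2%) and 3 (27.3%) fell. Eif4g3, a translation factor that spermatocytes need to leave prophase, fell by 0.33 and 0.47, but under quantile normalization it was at 0.01 and -0.02 and did not pass, and with own totals its ClpP cKO change (-0.14) did not pass. Cpeb1, which binds stored mRNAs and controls their tails, rose by 0.57 and 0.82. Of 21 tested transcription factors of the cell cycle 4 (19.0%) and 8 (38.1%) rose and 4 (19.0%) fell in each, with rises near the background in both. Foxm1, the activator of G2 and M phase genes, fell from 41.9 ± 0.697 FPKM to 27.7 ± 3.85 and 25.8 ± 3.99 (-0.59 and -0.69, SE 0.12 each). Lin37, a subunit of the complex that binds such promoters, fell by 0.39 in each, but in ClpX cKO not with own totals (-0.17). Among 18 genes of the central spindle and cytokinesis 1 rose and 1 fell in ClpP cKO (5.56% each), and 4 rose (22.2%) and 3 fell (16.7%) in ClpX cKO. The kinesin gene Kif20a fell by 0.21 and 0.34, in both cases not under quantile normalization (-0.04 and -0.10) or with own totals (-0.03 and -0.13), and Kif4 rose by 0.37 in ClpX cKO and was at 0.22 in ClpP cKO, which passed only with own totals (0.34).

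**Figure D5:**
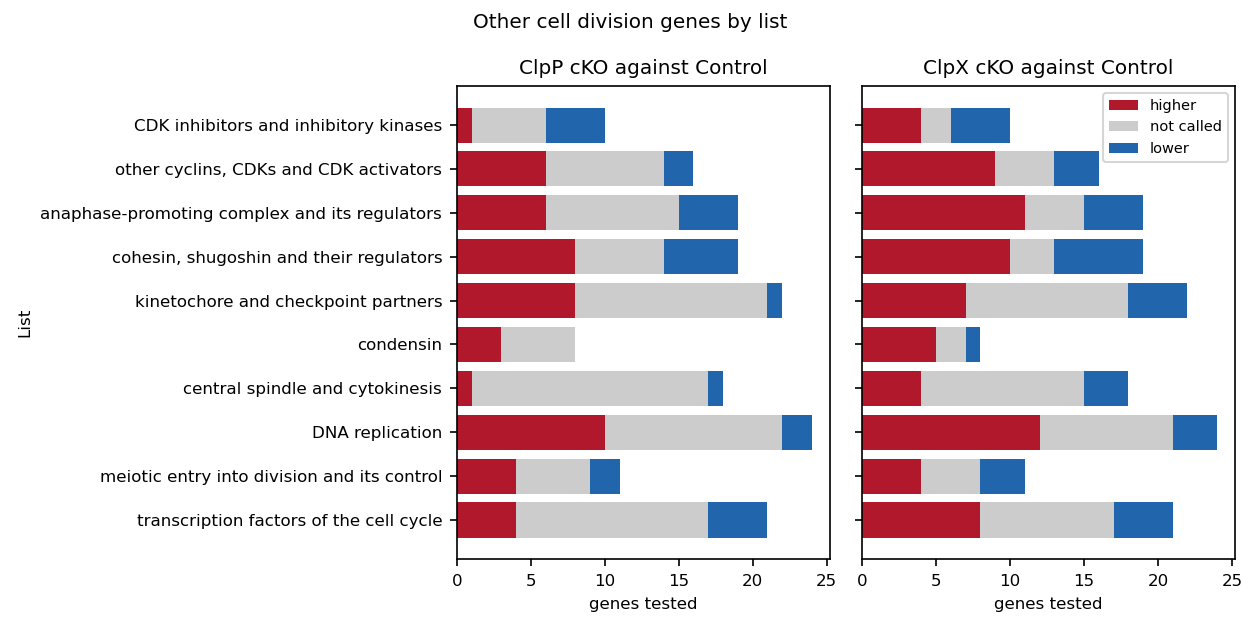
Number of tested genes (horizontal axis) of 10 lists of other cell division genes that were higher (red), not called (grey) or lower (blue) in ClpP cKO (left) and ClpX cKO (right) against control. In DNA replication 10 and 12 of 24 genes were higher, and in the central spindle list 16 and 11 of 18 were not called.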

How the data were processed

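The deposited table holds FPKM for 54532 genes, computed by the authors against GRCm38 (mm10), per the submitters' processing notes. The aligner and counter are not given in the sources used here. Multiplying FPKM by gene length, a column per the file headers, gave whole reads for 100% of values in each library (tolerance 0.01). The implied per-million denominator was 0.919 ± 0.0280 times the library's gene reads for control, 1.05 ± 0.00370 for ClpP cKO and 1.07 ± 0.0174 for ClpX cKO libraries (mean ± SD, n = 3).

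Genes with a mean of at least 1 FPKM were tested on log2(FPKM + 1), which understates changes of low genes, with limma 3.58.1 in R 4.3.3 (9 libraries in 1 model, 6 residual degrees of freedom, variance trend). Calls have a Benjamini-Hochberg adjusted p under 0.05 over all tested genes, two-sided. Alternatives are named in the closing section. For voom, library sizes were scaled by the trimmed mean of M-values. The fit was run on simulated reads in which a small set of genes was raised in ClpP cKO alone. That setting lacks the wide changes and the group difference in denominator of these data, so it does not check the scaling. Python 3.11.15 with pandas 2.3.3, numpy 2.4.6 and matplotlib 3.10.9 was used for the rest.

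The 33 genes, their roles, the 10 further lists and the 9 marker lists were chosen with earlier results of these data known. All 33 are named. In each further list up to 2 called genes with the smallest adjusted p in ClpX cKO are named.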

Additional observations from a re-analysis of the deposited data

How the results depend on the processing

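Depth limits the low genes most, such as Cdc25b with 52 to 160 reads per library, and 3 libraries a group limit all calls. Alternatives were a pseudocount of 0.1, no filter or a mean FPKM of at least 5, 4 other scalings, fits on 6 libraries, the replicate block, a robust prior, a fit to protein-coding genes, the omission of each library and, chosen after seeing the data, that of Control 3 with ClpX cKO 1. Over the changes of the 33 genes, 1926 of 2064 recalculated values kept their side of the threshold and, where called, their direction, 92 lost their call, 42 gained one and 4 changed sign with a call before or after. A further 70 changed sign without a call on either side. The 4 were under quantile normalization: Spdya (0.0053), Nek2 (0.18) and Pttg1 (0.013) in ClpX cKO and Cdc20 in ClpP cKO (0.32, called). The cause was not tested. The 2064 values include ClpX cKO against ClpP cKO, where none of the 33 genes was called as deposited, so no call could be lost there.

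Against control in ClpP cKO, 4 division genes rose and 14 fell. The rises became 2 with a mean FPKM of at least 5 (28 of 33 genes tested), 9 under quantile normalization and 10 with own totals, where 9 fell. In ClpX cKO the 6 rises became 3, 10 and 13 under the same settings, and the 17 falls became 9 under quantile normalization and 8 with own totals. The filter at 5 called 6871 of all genes in ClpX cKO, from fewer genes tested. Under it 24.4% of all tested genes rose in ClpP cKO and 32.1% in ClpX cKO, beside 7.14% and 10.7% of the division genes. Leaving out 1 library gave 11 to 19 calls (1 to 4 higher, 10 to 15 lower) of the 33 in ClpP cKO and 3617 to 8729 of all genes, and in ClpX cKO 19 to 24 of the 33 (6 to 7 higher, 13 to 17 lower) and 9825 to 11779 of all genes. In ClpP cKO 11 of the 33 were called without Control 2 or ClpP cKO 2, with 1 rise each, and 2 rises were called without Control 1. All 9 libraries called 7722 of all genes there, the omission of Control 1 left 4190, that of Control 2 left 4888, that of ClpP cKO 2 left 3617 and that of ClpP cKO 3 left 4040.

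ClpX cKO against ClpP cKO called 18 of all genes, 29 under quantile normalization, 42 with voom, 89 on the 6 libraries compared, 0 to 4758 without 1 library (4758 without ClpX cKO 1, 445 without Control 3, at most 8 otherwise) and 5149 without Control 3 and ClpX cKO 1. Of the 33 genes 0 to 3 were called without 1 library (0 to 2 higher, 0 to 1 lower) and 2 without both (1 higher, 1 lower).

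Correlations of deviations were above 0 in 8 of 9 same-numbered pairs (-0.07 to 0.23) and in 7 of 18 others (-0.24 to 0.11). They were over 0.1 in 4 of the 9 and in 1 of the 18 others, so same-numbered libraries leaned together. The main fit did not pair libraries by number, because the labels give no batch. With the replicate block, 5 division genes rose (15.2%) and 13 fell (39.4%) in ClpP cKO, where 20.7% of all tested genes rose and 24.7% fell. In ClpX cKO 7 rose (21.2%) and 17 fell (51.5%), where 32.0% of all tested genes rose and 33.4% fell. ClpX cKO against ClpP cKO then called 1 of all genes. Not every library correlated best with its own number: for Control 2, ClpP cKO 3 (0.08) exceeded ClpP cKO 2 (0.06).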
